A study of Bos taurus with 24 samples.

Results

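The change in the oocyte transcriptome from the germinal vesicle (GV) stage to metaphase II (MII) was examined in oocytes collected in spring. It covers 12 of the 24 libraries of the series, namely 6 libraries of GV oocytes and 6 of MII oocytes collected in May, and every gene with a value over 0.1 FPKM in at least 1 of these 12 libraries. Of 11306 genes in the deposited table, 9337 met this rule. The oocytes came by ultrasound-guided follicle aspiration, under sedation and epidural analgesia, from non-lactating, non-pregnant crossbred beef cows of Bos taurus, Angus-based. No treatment was compared between cows, but in all of them the dominant follicle was removed ahead of the first collection. Aspiration was repeated within each month, and the oocytes for sequencing came from the second collection of the month. GV oocytes were stripped of cumulus cells and lysed without culture. MII oocytes were first matured in vitro for 24 h in a medium with follicle stimulating hormone and fetal bovine serum, inside their cumulus, and then stripped in the same way with hyaluronidase and vortexing. The protocol describes each library as a pool of 4 oocytes of 1 animal, whereas the sample labels speak of individual cells, and neither states whether a replicate number marks the same cow at both stages. The comparison therefore holds the stage together with 24 h of culture, and the spread between libraries is that between pools.

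A fully grown GV oocyte is arrested in prophase of the first meiotic division and has largely stopped transcribing. It holds a stock of messenger RNAs (mRNAs) that serves maturation and the first cleavages of the embryo. When meiosis resumes, the maturation promoting factor, a complex of CDK1 and a B-type cyclin, drives germinal vesicle breakdown and spindle assembly, and the oocyte then stops again at metaphase II. On the way some stored mRNAs receive longer poly(A) tails and are translated, while others are deadenylated and destroyed. The libraries were made by the Smart-seq2 method, which primes complementary DNA on poly(A) tails, and the deposited FPKM (fragments counted per kilobase of transcript and per library size) were scaled to the same total in every library. A value is thus a gene's share of the captured mRNA, per length, and a fall in a transcript, a shorter tail and a rise in the rest of the mRNA cannot be told apart in it. An oocyte that has stopped transcribing can show a higher share of a transcript without having made more of it.

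A pair of libraries stood apart before any gene was compared. Relative depth, estimated from the steps between low values, was 0.0565 in GV replicate 6 and 0.149 in MII replicate 6, against 0.608 to 1 in the other 10 libraries, where GV replicate 1 was set to 1. The correlation of log2(FPKM + 1) with the libraries of the same stage averaged 0.90 to 0.96 in those 10 libraries. For GV replicate 6 it averaged 0.81 with GV and 0.821 with MII libraries, so that this library was on average closer to the other stage. Changes without this pair are given beside the genes in which replicate 6 stood apart. Oocyte markers were present in all 12 libraries, and 12 listed markers summed to 519.6 to 1234 FPKM in GV and 1039 to 1362 FPKM in MII oocytes. Of 18 tested markers of cumulus and granulosa cells, 0 fell and 1 rose by the rule given below, with 2 at an unadjusted p under 0.05, and their sum was 38.3 to 589 FPKM in GV and 35.1 to 163 FPKM in MII oocytes. The highest sums came from GV replicates 3 and 6. Over 0.1 FPKM were 16 of the 18 in GV replicate 3 and 8 to 13 in every other library, and AMHR2, CD44, COL4A1, CYP19A1 and FSHR of the same list were at or under 0.1 FPKM in all 12. Markers called lower numbered 1 without GV replicate 6, MII replicate 5 or both shallow libraries, 2 with a pseudocount of 0.1 and 4 with no pseudocount. The median marker change was -0.15, and -1.48 as the log2 ratio of group means, so that by group means most markers were lower in MII oocytes. The intermediate filament genes VIM and KRT18 reached 75.7 FPKM in GV replicate 3 and 392 FPKM in GV replicate 6, while the median GV library had 0.215 and 1.12 FPKM. Their log2 changes were -1.302 ± 0.86 (SE, adjusted p = 0.277) and -0.24 ± 1.36 (SE, adjusted p = 0.902), or -1.23 and 0.20 without both shallow libraries, and the part of such RNA in other results was not tested. The marker that rose was HAS2, the hyaluronan synthase of the expanding cumulus, at 0.157 to 0.445 FPKM (median 0.277) in GV and 1.19 to 3.99 FPKM (median 1.45) in MII oocytes, and it was no longer called without MII replicate 6, at 0.88, nor without both shallow libraries, at 0.90, nor with median-of-ratios scaling, at 0.991. Blood markers were tested for 2 genes and neither was called, with none at an unadjusted p under 0.05. The plot of libraries shows the stages apart along the first component except for GV replicate 6. That library lay on the MII side, at 11.7, beside 15.5 in MII replicate 1, while the other GV libraries lay at -21.4 or below. Replicate 6 of each stage lay apart along the second component.

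**Figure D1:**
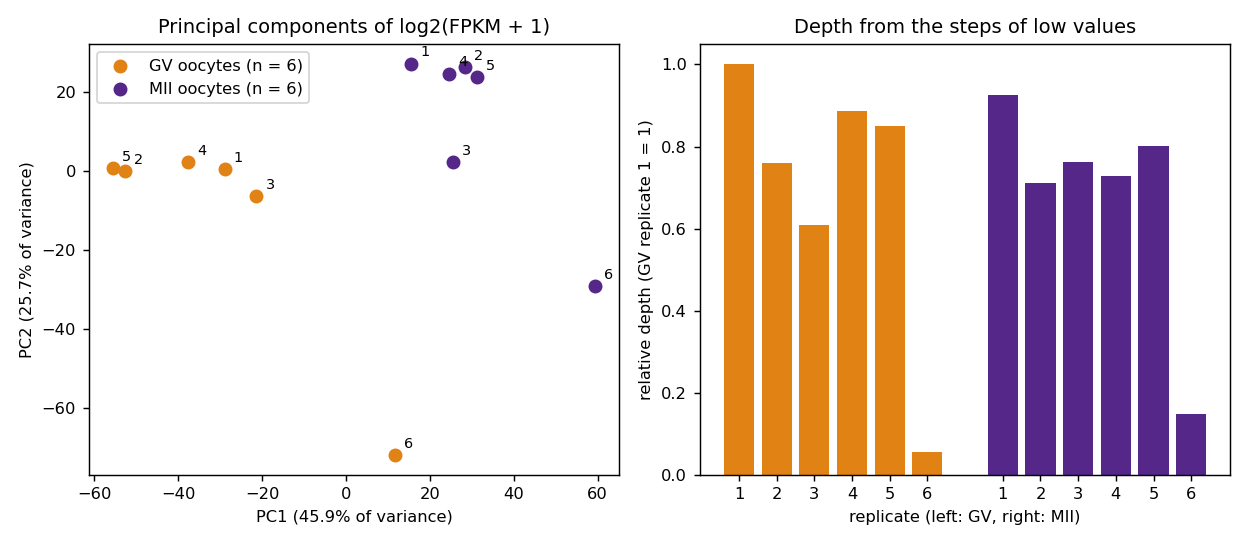
Left, the 12 spring libraries on the first and second principal components of log2(FPKM + 1), numbered by replicate. Right, relative depth of each library with GV replicate 1 set to 1. GV replicate 6, at 0.0565, and MII replicate 6, at 0.149, lie apart from the other libraries.

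The first question was how far the stored mRNAs changed. A gene was called when the unadjusted p of limma was under 0.05 and the fold change over 2, the thresholds of the study, and Benjamini-Hochberg adjusted p-values over all genes tested are given beside the calls. Fold changes are MII minus GV on the log2(FPKM + 1) scale, which understates the change of low genes. In all, 1126 of 9337 genes were called, which is 12.1%. Of these, 786 were lower in MII oocytes (8.42% of genes tested) and 340 were higher (3.64%), so that 69.8% of the calls were falls. An adjusted p under 0.05 was reached by 1018 of the called genes and, without regard to fold, by 2292 genes (24.5%), the latter 3610 without GV replicate 6 and 3985 without both shallow libraries. Quantile normalization gave 655 falls and 561 rises and median-of-ratios scaling gave 920 and 232, so the balance of falls and rises depends on how libraries are scaled. Without both shallow libraries 1228 genes were called, 1028 of them in common with the calls over 12 libraries. Where the groups of a gene did not overlap, the two-sided exact permutation p is 0.00216, the smallest that 924 assignments of 6 and 6 libraries can give, and since the largest changes below were named only among such genes it adds no support to them. The median log2 change over all genes tested was -0.03.

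Among 1533 expressed genes, those with a mean of at least 5 FPKM over the 12 libraries, 4 fates were told apart. Lower in MII oocytes were 398 genes (26.0%), among them 56 lost genes whose MII mean was at most 10% of the GV mean. The lost genes numbered 36 without GV replicate 5, 72 without MII replicate 3 and 71 without both shallow libraries. Raised were 237 genes (15.5%). Retained were 215 genes (14.0%), for which the 95% confidence interval of the log2 change lay within -1 and 1 and no call was made. The other 683 genes (44.6%) were undecided, because their interval reached past a 2-fold change. The classes moved with the scaling of the libraries: quantile normalization gave 333 lower, 36 lost and 365 raised genes, and median-of-ratios scaling 458, 82 and 168. Without both shallow libraries 415 were lower, 255 raised and 268 retained. The median change was -1.91 in the lower and 1.26 in the raised genes, so the falls were the deeper of the changes on this scale. The values of the 6 GV and the 6 MII libraries did not overlap for 236 of the lower and 97 of the raised genes, where 23.8% of expressed genes and 13.9% of all genes tested had groups that did not overlap, the latter 9.15% lower and 4.71% higher in MII oocytes. Without both shallow libraries 377 of the lower and 212 of the raised genes were still called in that direction. Just inside the limit for lost genes was NDUFB10, at 9.97% of its GV mean, and just outside it was CYC1, at 10.1%. By level, genes were lower in 27.7% of the expressed genes under 20 FPKM, 24.3% of those from 20 to 100 FPKM and 18.8% of those over 100 FPKM, and raised in 16.1%, 12.4% and 23.2%. The plot of stage means shows the lost genes below the main cloud, up to GPX4 with a GV mean of 308 FPKM.

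**Figure D2:**
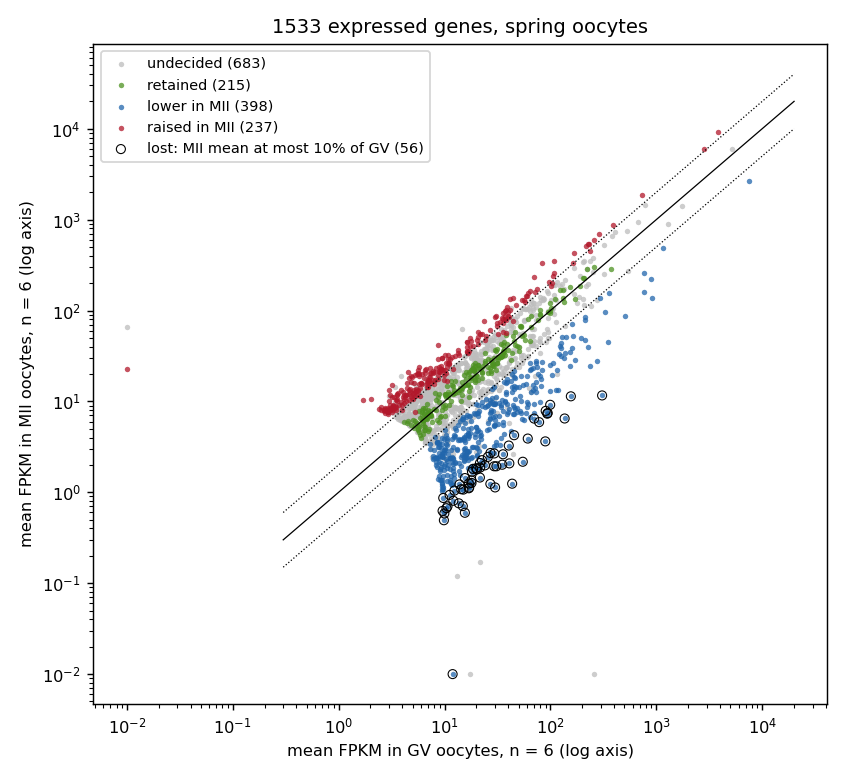
Mean FPKM of the 1533 expressed genes in GV oocytes (x axis) and MII oocytes (y axis), 6 libraries each, both axes logarithmic. The solid line marks equal means and the dotted lines a 2-fold difference. 398 genes were lower and 237 raised, and open circles mark the 56 lost genes.

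The deepest falls among genes whose groups did not overlap were those of EXOSC6, GPX4, SSSCA1, HRAS, MRPL28, CCDC107, TUBB4B and SEPW1. They belong to different cellular functions: RNA degradation, peroxide defence, growth factor signalling, mitochondrial translation and the cytoskeleton. EXOSC6 (chromosome 18, 1853417 to 1853641 on UMD3.1, as the table gives it), a subunit of the RNA exosome that degrades RNA from the 3′ end, ranged from 24.1 to 84.96 FPKM in GV oocytes, with a median of 58.9 FPKM, and from 0.01 to 7.34 FPKM in MII oocytes, with a median of 1.38 FPKM. Every GV library was above every MII library, and the log2 change was -4.39 ± 0.53 (SE), adjusted p = 0.000136. The listed entry of EXOSC6 is very short, shorter than the DGCR6L entry described below. Its lowest MII value is the lowest of the deposited values. Its size is therefore uncertain: the log2 change ran from -6.95 to -4.14 over the 25 alternatives, all of which called it. GPX4 (chromosome 7, 45205077 to 45207499), the selenoprotein that reduces lipid hydroperoxides in membranes, ranged from 61.97 to 532 FPKM in GV oocytes, with a median of 315 FPKM, and from 8.83 to 15.4 FPKM in MII oocytes, with a median of 11.8 FPKM. The MII mean was 3.78% of the GV mean, the groups were apart although GV replicate 6 was far below the other GV libraries, and the log2 change was -4.38 ± 0.42 (SE), adjusted p = 3.4e-05. GPX4 had the highest GV mean of all lost genes, at 308 ± 159 FPKM (SD, n = 6). Without both shallow libraries the log2 changes of EXOSC6 and GPX4 were -4.401 and -4.74.

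HRAS (chromosome 29, 51095423 to 51098332), a small GTPase upstream of the MAP kinases, ranged from 11.1 to 207 FPKM in GV oocytes, with a median of 72.8 FPKM, and from 1.64 to 5.66 FPKM in MII oocytes, with a median of 3.28 FPKM. Its GV values spread widely, with the lowest in replicate 6 and the highest in replicate 5, but none came down to the MII range, and the log2 change was -3.82 ± 0.59 (SE), adjusted p = 0.000711. MRPL28 (chromosome 25, 361740 to 364296), a protein of the large mitochondrial ribosomal subunit, went from 30.04 ± 16.3 to 1.13 ± 0.346 FPKM (SD, n = 6), a log2 change of -3.71 ± 0.32 (SE), adjusted p = 1.5e-05. The MII libraries were all under 2 FPKM and close together, from 0.856 to 1.76 FPKM. SEPW1, which encodes selenoprotein W, went from 93.4 ± 39.4 to 7.33 ± 2.41 FPKM, so that a pair of selenoprotein transcripts was among the 8 deepest falls. TUBB4B, a beta tubulin, was at 28.5 to 157 FPKM (median 104) in GV and 3.21 to 14.4 FPKM (median 6.704) in MII oocytes, SSSCA1 was at 43.9 to 224 FPKM (median 141) in GV and 2.35 to 9.77 FPKM (median 6.63) in MII oocytes and CCDC107 at 8.11 to 49.6 FPKM (median 36.9) in GV and 1.39 to 2.91 FPKM (median 1.94) in MII oocytes. In each of these every GV library was above every MII library. TUBB4B shares most of its coding sequence with other beta tubulin genes, so its reads may be split among them.

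Further abundant GV transcripts that were lost were CBR3, POLR2G and DGCR6L. CBR3, a carbonyl reductase, was at 30.3 to 130.3 FPKM (median 94.1) in GV and 6.61 to 12.05 FPKM (median 7.17) in MII oocytes, and POLR2G, a subunit of RNA polymerase II, at 28.8 to 142 FPKM (median 107) in GV and 6.43 to 13.9 FPKM (median 8.19) in MII oocytes. Both had groups that did not overlap, with log2 changes of -3.27 ± 0.32 (SE), adjusted p = 3.77e-05, and -3.202 ± 0.36 (SE), adjusted p = 0.000103. DGCR6L is listed at 2 loci, and the abundant entry spans only 274 bases (chromosome 15, 73440856 to 73441129). It went from 0.01 to 329 FPKM in GV and from 0.01 to 27.3 FPKM in MII oocytes, the groups overlapped, the adjusted p was 0.0888, and leaving out any of GV replicates 2, 4 and 5 or MII replicates 1 and 6 ended the call, at log2 changes of -2.47 to -2.98. Its loss is therefore the least certain of those named.

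Rises were shallower. The largest among genes whose groups did not overlap were those of BCAR4, CWC25, SMC3, TBPL1, TMEM128, CENPF, CDC5L and CGGBP1. BCAR4 (chromosome 25, 10576475 to 10584325), a gene active in the oocytes and early embryos of cattle and first described in breast cancer cells, ranged from 32.4 to 141 FPKM in GV oocytes, with a median of 87.1 FPKM, and from 211 to 437 FPKM in MII oocytes, with a median of 329 FPKM. The lowest MII library was above the highest GV library, and the log2 change was 2.09 ± 0.34 (SE), adjusted p = 0.000918. A pair of spliceosome genes rose, CWC25 from 4.56 ± 2.05 to 21.1 ± 3.101 FPKM and CDC5L from 5.601 ± 2.73 to 20.3 ± 3.53 FPKM (SD, n = 6), with log2 changes of 2.08 ± 0.28 and 1.76 ± 0.26 (SE). SMC3, a subunit of the cohesin ring that holds sister chromatids together, was at 0.908 to 2.79 FPKM (median 1.62) in GV and 3.77 to 16.1 FPKM (median 9.77) in MII oocytes, and its log2 change was 1.99 ± 0.31 (SE), adjusted p = 0.000771. CENPF, a kinetochore protein of mitotic and meiotic cells, was at 2.51 to 12.3 FPKM (median 3.99) in GV and 13.4 to 24.6 FPKM (median 19.95) in MII oocytes, a change of 1.85 ± 0.31 (SE), adjusted p = 0.0013. TBPL1, a relative of the TATA-binding protein with a role in germ cells, rose 4.13-fold in its mean, the membrane protein gene TMEM128 3.96-fold, and CGGBP1, which binds CGG repeats, 3.796-fold. The last of these had 1 MII library, replicate 6, far above the others at 32.04 FPKM, and its log2 change without both shallow libraries was 1.64.

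The most abundant raised transcripts at MII included genes of actin, of the cell cycle and of the oocyte itself. TMSB4 and TMSB4X, listed at 2 loci for the actin-sequestering peptide thymosin beta 4, had MII means of 9286 ± 2099 and 5985 ± 284 FPKM (SD, n = 6), the highest of all raised genes. Their near-identical sequences make the split of reads between them uncertain, and quantile normalization lowered both changes under the 2-fold limit, to 0.74 and 0.79. TMSB4X was also not called with median-of-ratios scaling, at 0.95, nor without GV replicate 2, at 0.97. PTTG1, securin, which restrains separase until anaphase, ranged from 473 to 927 FPKM in GV oocytes, with a median of 757 FPKM, and from 848 to 2584 FPKM in MII oocytes, with a median of 1967 FPKM. Its groups overlapped only through MII replicate 6, and the log2 change was 1.305 ± 0.26 (SE), adjusted p = 0.00324, or 1.398 without both shallow libraries. OOSP1, an oocyte secreted protein, went from 289 ± 156 to 687 ± 147 FPKM, and CKS2, a small subunit of cyclin-dependent kinase complexes, from 228 ± 85.9 to 543 ± 58.5 FPKM. TRMT112, a partner of RNA and protein methyltransferases, rose from 256 ± 78.6 to 592 ± 43.6 FPKM, HYPK, a partner of the N-terminal acetyltransferase NatA, from 232 ± 104 to 536 ± 119 FPKM, and TOMM6, of the outer membrane translocase of mitochondria, from 387 ± 66.3 to 877 ± 78.1 FPKM. All 5 had log2 changes between 1.19 and 1.37, with adjusted p-values from 0.000226 to 0.00577 by limma.

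The retained genes show which abundant messages kept their share. The 8 with the highest GV mean were RPL17, C15H11orf31, UBE2D3, MRPS16, COX8A, MRPL20, LBHD1 and PPP1R35. COX8A, a subunit of cytochrome c oxidase, ranged from 86.2 to 267 FPKM in GV oocytes, with a median of 230.0 FPKM, and from 160.4 to 301 FPKM in MII oocytes, with a median of 223 FPKM. The groups overlapped throughout, and the 95% confidence interval of the log2 change was -0.38 to 0.85. A pair of mitochondrial ribosomal genes was retained at similar levels: MRPS16 with 81.00 to 287 FPKM (median 229.5) in GV and 197 to 294 FPKM (median 216) in MII oocytes, and MRPL20 with 116 to 287 FPKM (median 187) in GV and 110.5 to 220.2 FPKM (median 197) in MII oocytes. Their intervals were -0.41 to 0.85 and -0.53 to 0.50, whereas MRPL28 of the same organelle was lost. RPL17, of the large cytosolic ribosomal subunit, had an interval of -0.98 to 0.13 around a change of -0.43, and UBE2D3, a ubiquitin conjugating enzyme, one of -0.11 to 0.95 around 0.42. C15H11orf31, LBHD1 and PPP1R35, the last a regulatory subunit of protein phosphatase 1, had changes of 0.35, -0.31 and 0.26, with intervals of -0.30 to 0.99, -0.89 to 0.28 and -0.27 to 0.79. A retained gene is one for which a change over 2-fold in either direction lay outside its interval, and smaller changes remain possible.

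**Figure D3:**
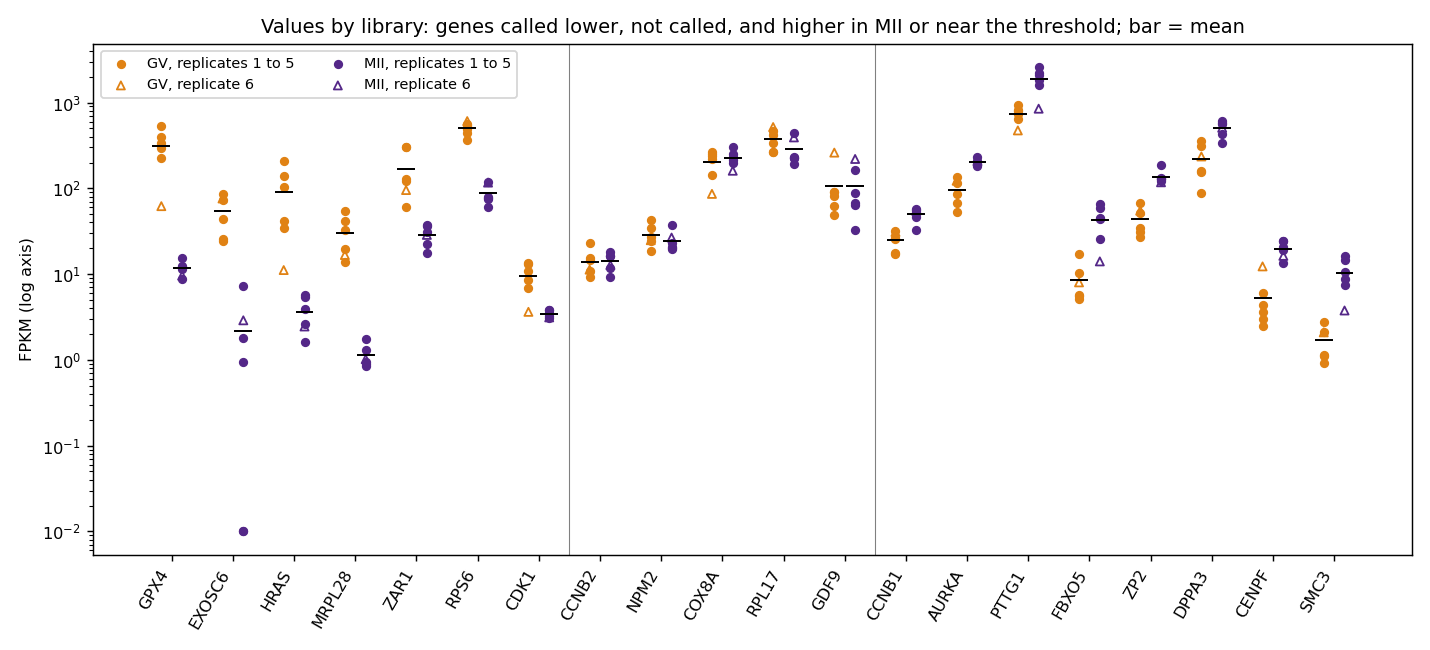
FPKM of 20 named genes in each spring library, on a logarithmic axis, with GV oocytes to the left and MII oocytes to the right of each gene, a bar at the group mean and triangles for replicate 6. GPX4 falls from 61.97 or more to 15.4 FPKM or less, COX8A keeps its level, and SMC3 rises from at most 2.79 to at least 3.77 FPKM.

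In the machinery of the meiotic divisions more genes were called higher than lower. In a list of 26 genes of the maturation promoting factor and the M-phase kinases, 2 of 26 tested members were called lower and 6 higher in MII oocytes, or 7.69% and 23.1% against 8.42% and 3.64% of all genes, and the median change was 0.42. Expressed genes are called more often than all genes. Among 15 expressed members of this list 1 was lower (6.67%) and 4 were raised (26.7%), against 26.0% and 15.5% of expressed genes. The partners of the factor itself did not move together. CDK1, its kinase, ranged from 3.63 to 13.6 FPKM in GV oocytes, with a median of 9.68 FPKM, and from 3.07 to 3.82 FPKM in MII oocytes, with a median of 3.41 FPKM. The values overlapped through GV replicate 6, and the log2 change was -1.14 ± 0.27 (SE), adjusted p = 0.00875 (exact permutation p = 0.00649, two-sided), or -1.33 without both shallow libraries, but with quantile normalization it was -0.92 and not called. CCNB1, cyclin B1, ranged from 17.1 to 31.7 FPKM in GV oocytes, with a median of 25.98 FPKM, and from 32.3 to 57.2 FPKM in MII oocytes, with a median of 53.99 FPKM. All MII libraries were above all GV libraries, yet the change of 0.99 ± 0.23 (SE), adjusted p = 0.00865, fell short of 2-fold, and it passed 2-fold when GV replicate 2, 3, 4 or 6 or MII replicate 1 or 4 was left out, at 1.01 to 1.11, and without both shallow libraries, at 1.03. CCNB2, cyclin B2, was retained at 9.18 to 23.01 FPKM (median 12.9) in GV and 9.18 to 18.3 FPKM (median 14.4) in MII oocytes, with an interval of -0.52 to 0.57.

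Among the kinases around this factor, AURKA, the Aurora kinase of the spindle poles, went from 96.7 ± 32.8 to 204 ± 18.1 FPKM (SD, n = 6) without overlap, a log2 change of 1.14 ± 0.24 (SE), adjusted p = 0.0049. It was not called with median-of-ratios scaling, at 0.96, nor without GV replicate 3, at 0.98. TPX2, which activates Aurora A on spindle microtubules, rose from 1.64 ± 0.551 to 6.19 ± 1.41 FPKM, a change of 1.44 ± 0.21 (SE), adjusted p = 0.000476. PLK1, the Polo-like kinase, fell from 5.84 ± 2.95 to 2.04 ± 0.916 FPKM, a change of -1.08 ± 0.32 (SE), adjusted p = 0.0274, and it was not called without GV replicate 2, GV replicate 6 or MII replicate 2, at -0.94 to -0.997, nor with quantile normalization, at -0.92. With CDK1 and PLK1 both under the limit in that normalization, 0 members of the list were called lower there. WEE2, the kinase that holds CDK1 inactive in the GV oocyte, and FBXO43, which maintains the metaphase II arrest, were not analysed here.

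The anaphase promoting complex, its inhibitors and the cohesin guardians formed a list of 31 genes, of which 1 was called lower and 7 were called higher, with a median change of 0.32. The shares were 3.23% and 22.6%, against 8.42% and 3.64% of all genes. Among 13 expressed members 7.69% were lower and 38.5% raised, against 26.0% and 15.5% of expressed genes. The 1 that fell was ANAPC13, a small subunit of the complex, at 68.4 to 188 FPKM (median 125) in GV and 22.6 to 46.4 FPKM (median 30.5) in MII oocytes, a change of -1.85 ± 0.30 (SE), adjusted p = 0.00103. Other subunits rose: CDC27 from 1.13 ± 0.325 to 3.64 ± 0.69 FPKM and CDC26 from 8.98 ± 2.795 to 21.2 ± 2.54 FPKM. SGO2, shugoshin 2, the protector of centromeric cohesion in meiosis, was at 0.875 to 1.89 FPKM (median 1.27) in GV and 4.11 to 7.65 FPKM (median 5.15) in MII oocytes, and no GV library reached the MII range. FBXO5, which inhibits the complex and whose values were seen before it was chosen for description, ranged from 5.12 to 17.1 FPKM in GV oocytes, with a median of 6.87 FPKM, and from 14.1 to 65.3 FPKM in MII oocytes, with a median of 44.4 FPKM. The groups overlapped by MII replicate 6 alone, which was below the highest GV library, and the log2 change of 2.12 ± 0.39 (SE), adjusted p = 0.00219, was 2.39 without both shallow libraries.

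Spindle motors and tubulins had calls in both directions. Of 64 tested members, 6 were called lower and 10 higher, the latter 14 with quantile normalization and 5 with median-of-ratios scaling, and the median change was 0.11. The shares were 9.38% and 15.6%, against 8.42% and 3.64% of all genes. Among 17 expressed members 23.5% were lower and 17.6% raised, near the 26.0% and 15.5% of expressed genes. The falls included the tubulins TUBB4B, described above, and TUBA1B, an alpha tubulin, at 89.5 to 315 FPKM (median 180.1) in GV and 22.7 to 101 FPKM (median 43.7) in MII oocytes. DYNLL1, a dynein light chain and one of the most abundant transcripts at GV, ranged from 645 to 1644 FPKM in GV oocytes, with a median of 1184 FPKM, and from 195 to 647 FPKM in MII oocytes, with a median of 495 FPKM. Its groups touched, and the log2 change was -1.31 ± 0.30 (SE), adjusted p = 0.00731. The rises included a pair of kinesins of the central spindle, KIF20A, from 2.05 ± 0.817 to 6.898 ± 2.29 FPKM, and KIF23, from 1.74 ± 0.678 to 6.598 ± 2.48 FPKM, with log2 changes of 1.37 ± 0.27 and 1.44 ± 0.25 (SE). Both had groups that did not overlap, at levels far under those of the tubulins.

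In signalling, 1 of 18 tested genes of the MOS and MAP kinase cascade was lower and 2 were higher, or 5.56% and 11.1% against 8.42% and 3.64% of all genes. Only 6 members were expressed, of which 1 was lower and 2 were raised. The fall was that of HRAS. The rises were those of YWHAZ and YWHAB, adaptors that bind phosphorylated signalling proteins, from 37.9 ± 51.6 to 57.1 ± 10.6 FPKM and from 4.18 ± 3.51 to 10.7 ± 3.23 FPKM. GV replicate 6 was far above the other GV libraries in both, at 142 and 11.2 FPKM, and the groups overlapped. Without both shallow libraries the changes were 1.91 and 1.49, while that of YWHAZ, at 1.29 ± 0.54 (SE), adjusted p = 0.0946, was not called without GV replicate 1, 3 or 5 or MII replicate 3 or 4, at 0.99 to 1.28. The list median, 0.06, was -0.01 with median-of-ratios scaling. MOS itself was not analysed here. A list of meiotic arrest held genes of cyclic AMP signalling, the pathway that keeps meiosis arrested, and, outside that pathway, WEE1, NPR2, GUCY1B3 and PDE5A. Of its 12 tested members limma called 0 in either direction, 2 had an unadjusted p under 0.05, and the lowest adjusted p was 0.0611. Only 1 of these 12 genes was expressed at a mean of at least 5 FPKM. PDE3A, the phosphodiesterase of the oocyte, and GPR3, the receptor that keeps cyclic AMP high, were not analysed here.

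Transcripts known for the oocyte itself differed from each other. In the list of zona pellucida and oocyte-secreted factors, 0 of 11 tested members were called lower and 3 higher in MII oocytes, with a median of 0.34. Higher were thus 27.3% of the tested members, against 3.64% of all genes, and 50.0% of 6 expressed members, against 15.5% of expressed genes. ZP2, a glycoprotein of the zona that sperm bind to, ranged from 26.8 to 66.7 FPKM in GV oocytes, with a median of 43.3 FPKM, and from 118 to 185 FPKM in MII oocytes, with a median of 129 FPKM. Every MII library was above every GV library, and the log2 change was 1.65 ± 0.25 (SE), adjusted p = 0.000622. ZP3 and ZP4, further zona proteins, had changes of -0.33 ± 0.42 and 0.65 ± 0.29 (SE) with adjusted p-values of 0.563 and 0.112 by limma, and neither was retained by the interval rule. BMP15, a growth factor the oocyte sends to its cumulus, went from 10.8 ± 7.104 to 26.8 ± 10.7 FPKM, a change of 1.35 ± 0.42 (SE), adjusted p = 0.034, with overlap between the groups. GDF9, its partner, ranged from 48.7 to 261 FPKM in GV oocytes, with a median of 85.9 FPKM, and from 33.1 to 220.0 FPKM in MII oocytes, with a median of 77.1 FPKM. GV replicate 6 and MII replicate 6 were the highest libraries of their stages, the groups overlapped throughout, and the change of -0.04 ± 0.48 (SE) was too imprecise to be called retained, with an interval of -1.06 to 0.99. Without both shallow libraries the change was 0.0029.

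Among 26 maternal effect and chromatin genes of the early embryo, 1 was called lower and 4 were called higher, or 3.85% and 15.4% against 8.42% and 3.64% of all genes. Of the 9 expressed members 0 were lower and 3 raised (33.3%, against 15.5% of expressed genes). DPPA3, known as STELLA, which protects the maternal genome from demethylation, ranged from 87.7 to 359 FPKM in GV oocytes, with a median of 197 FPKM, and from 339 to 611 FPKM in MII oocytes, with a median of 537 FPKM. The groups overlapped slightly, and the change was 1.33 ± 0.31 (SE), adjusted p = 0.00869. DNMT1, the maintenance DNA methyltransferase, was at a lower level and rose from 1.64 ± 0.646 to 5.34 ± 1.46 FPKM, a change of 1.26 ± 0.22 (SE), adjusted p = 0.00166. UHRF1, its partner at replicated DNA, was at 3.74 to 13.6 FPKM (median 5.81) in GV and 5.95 to 44.3 FPKM (median 7.05) in MII oocytes, with replicate 6 the highest library of both stages, and its change of 0.77 ± 0.47 (SE) was not called, adjusted p = 0.241, and was 0.60 without both shallow libraries. NLRP5, known as MATER, was the 1 called lower, from 6.62 ± 2.58 to 3.103 ± 2.19 FPKM, at the edge of the limit with a log2 change of -1.00004 ± 0.34 (SE), adjusted p = 0.0462. The call ended without GV replicate 1, 2 or 6 or MII replicate 1, 2 or 5, at -0.85 to -0.99, and with quantile normalization, at -0.85, or depth as a covariate, at -0.94. OOEP, of the same subcortical complex, had means of 382 ± 190.1 and 667 ± 105 FPKM, and its change of 0.95 ± 0.31 (SE), adjusted p = 0.0402, was called only without GV replicate 1, 2 or 5 or MII replicate 6, at 1.0015 to 1.15. NPM2, the nucleoplasmin that remodels sperm chromatin, was retained at 18.7 to 42.8 FPKM (median 26.1) in GV and 19.6 to 36.96 FPKM (median 22.1) in MII oocytes, with an interval of -0.73 to 0.32. TLE6, KHDC3L and PADI6 were not analysed here.

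Lists of proteins that store mRNA and of those that destroy it were called at shares near or under those of all genes, with a few large changes. In the list of RNA storage and translation control 1 of 25 tested members was called lower and 1 higher, and this pair are paralogs. Each share is 4.0%, against 8.42% and 3.64% of all genes. ZAR1, zygote arrest 1, an RNA-binding protein of stored mRNAs, ranged from 61.4 to 304 FPKM in GV oocytes, with a median of 125 FPKM, and from 17.5 to 37.5 FPKM in MII oocytes, with a median of 29.9 FPKM. No libraries overlapped, and the change was -2.32 ± 0.39 (SE), adjusted p = 0.00116. ZAR1L, its relative, ranged from 14.1 to 48.3 FPKM in GV oocytes, with a median of 25.8 FPKM, and from 41.8 to 88.2 FPKM in MII oocytes, with a median of 55.97 FPKM. GV replicate 6 held the highest GV value, above the lowest MII value, and the change was 1.21 ± 0.32 (SE), adjusted p = 0.0151, or 1.28 without both shallow libraries. YBX2, which coats stored mRNA in germ cells, had a change of -0.80 ± 0.38 (SE, adjusted p = 0.133), and it was called only without MII replicate 3 or 6, at -1.05 and -1.04, or with no pseudocount, at -1.01. DAZL, a germ cell activator of translation, was under 2 FPKM in every GV library, with a change of 0.77 ± 0.43 (SE, adjusted p = 0.197) and a highest MII value in replicate 6, and the change was 0.53 without both shallow libraries.

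Of 42 tested genes of deadenylation and decay, 3 were called lower and 2 higher, and the median was 0.12. These shares, 7.14% and 4.76%, were near the 8.42% and 3.64% of all genes. The 3 that fell are all subunits of the RNA exosome, EXOSC6 by the short entry described above. EXOSC4 was at 21.8 to 124 FPKM (median 63.1) in GV and 2.07 to 10.7 FPKM (median 6.79) in MII oocytes and EXOSC1 at 5.81 to 13.1 FPKM (median 8.97) in GV and 0.302 to 1.495 FPKM (median 0.654) in MII oocytes, so that with EXOSC6 none of these subunits had an MII library within its GV range. The log2 changes of EXOSC4 and EXOSC1 were -3.15 ± 0.43 and -2.501 ± 0.23 (SE). The rises were those of CNOT7, a deadenylase of the CCR4-NOT complex, from 7.800 ± 5.86 to 21.6 ± 13.7 FPKM, and UPF3B, of nonsense-mediated decay, from 0.346 ± 0.158 to 2.13 ± 0.163 FPKM. The MII mean of CNOT7 rests in part on replicate 6 at 48.9 FPKM, and its change was 1.43 without both shallow libraries. CNOT6L, the other deadenylase described in oocytes, had a change of 0.87 ± 0.36 (SE, adjusted p = 0.0951), which was called without GV replicate 6 or MII replicate 1, at 1.04 and 1.03, and with a pseudocount of 0.1, at 1.52, and it was 0.72 without both shallow libraries. ZFP36L2, which recruits deadenylases to AU-rich mRNAs, had a change of -0.48 ± 0.52 (SE, adjusted p = 0.486), with the highest library of both stages in replicate 6, and -0.36 without both shallow libraries. BTG4, CPEB1, PABPN1L and EIF4E1B were not analysed here.

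Nuclear-encoded genes of the mitochondrion held many of the falls. As lists differ in how many members are expressed, and 26.0% of expressed genes were lower against 8.42% of all genes tested, the count among expressed members is given as well. For the mitochondrial ribosome, 31 of 77 tested members were called lower and 0 higher in MII oocytes, and the median was -0.60. Members called higher numbered 4 with quantile normalization, 2 without GV replicate 3 and 1 without GV replicate 6, MII replicate 3 or MII replicate 6. Among its 47 expressed members 21 were lower, 4 of them lost, and 14 retained, where lower members were 44.7%, so that falls and kept levels lay side by side in 1 particle. MRPL14 was at 49.3 to 122 FPKM (median 73.5) in GV and 6.41 to 13.9 FPKM (median 9.48) in MII oocytes, and MRPL27 at 27.3 to 56.1 FPKM (median 39.00) in GV and 1.71 to 7.75 FPKM (median 2.27) in MII oocytes. Both belong to the large subunit, their groups did not overlap, and the log2 changes were -2.86 ± 0.27 and -3.37 ± 0.31 (SE).

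Respiratory complex I, which takes electrons from NADH, had 17 of 45 members called lower and 2 higher, with a median of -0.51, and 14 of 30 expressed members were lower (46.7%). NDUFA8 and NDUFB10, accessory subunits, were at 5.72 to 25.2 FPKM (median 20.3) in GV and 0.947 to 2.07 FPKM (median 1.13) in MII oocytes, and at 15.4 to 36.4 FPKM (median 27.1) in GV and 0.495 to 4.14 FPKM (median 2.91) in MII oocytes. Their log2 changes were -2.96 ± 0.31 (SE), adjusted p = 5.88e-05, and -2.98 ± 0.31 (SE), adjusted p = 6.19e-05. The exceptions were NDUFB6, another accessory subunit, which rose from 8.92 ± 2.26 to 21.6 ± 2.88 FPKM without overlap, and the assembly factor NDUFAF4, which rose from 9.201 ± 3.44 to 22.97 ± 8.25 FPKM with overlap. In complexes II to V 19 of 52 members were lower and 2 higher, with a median of -0.09 over all members and -0.86 over the expressed ones, of which 17 of 36 were lower (47.2%). The median over all members ranged with the processing, from 0.00 with quantile normalization through -0.52 with no pseudocount to -0.83 for members with a mean of at least 1 FPKM. Members called higher numbered 1 without GV replicate 1, 5 or 6 or MII replicate 6 and with median-of-ratios scaling. CYC1, a cytochrome of complex III, fell from 33.1 ± 15.5 to 3.35 ± 0.936 FPKM, and UQCR10, a small subunit of the same complex, from 69.8 ± 21.5 to 9.25 ± 5.25 FPKM. ATP5G1, which encodes the c-subunit of ATP synthase, was at 108 to 154 FPKM (median 136) in GV and 11.9 to 42.9 FPKM (median 30.1) in MII oocytes, a change of -2.18 ± 0.28 (SE), adjusted p = 0.00023. Retained beside them were 6 genes, COX8A among them.

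Genes of mitochondrial protein import divided in both directions. 7 of 32 members were lower and 4 higher, or 9 lower and 2 higher without both shallow libraries. Among 18 expressed members 5 were lower (27.8%), near the 26.0% of expressed genes, and 4 were raised (22.2%, against 15.5%). The division ran through 1 complex, the translocase of the outer membrane. TOMM5 fell, at 28.6 to 104 FPKM (median 46.6) in GV and 3.000 to 11.8 FPKM (median 4.49) in MII oocytes, a change of -2.96 ± 0.38 (SE), adjusted p = 0.000232. TOMM7 rose, at 32.5 to 57.7 FPKM (median 50.2) in GV and 75.8 to 136 FPKM (median 114) in MII oocytes, a change of 1.25 ± 0.22 (SE), adjusted p = 0.00174, as did TOMM6, described above. TIMM23, the channel of the inner membrane, fell from 9.14 ± 2.94 to 1.704 ± 0.586 FPKM, with no overlap.

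The cytosolic ribosome had 22 of 80 members called lower and 1 higher, with a median of -0.49, and 20 of its 77 expressed members were retained. Of these expressed members 28.6% were lower, near the 26.0% of all expressed genes, and 1 was raised. Ribosomal protein genes have many processed copies in mammalian genomes, so single values are uncertain where reads could be split. RPS6, the small subunit protein phosphorylated on growth signals, ranged from 366 to 608 FPKM in GV oocytes, with a median of 513 FPKM, and from 59.8 to 120.0 FPKM in MII oocytes, with a median of 77.7 FPKM. The gap between the stages was wide, and the change was -2.52 ± 0.22 (SE), adjusted p = 1.47e-05. RPL18, of the large subunit, went from 104 ± 17.3 to 19.4 ± 9.61 FPKM, a change of -2.47 ± 0.28 (SE), adjusted p = 0.000115. FAU, which encodes a small subunit protein fused to a ubiquitin-like peptide and was chosen for description for its level, after its values were seen, ranged from 2340 to 13634 FPKM in GV oocytes, with a median of 7244 FPKM, and from 1013 to 4859 FPKM in MII oocytes, with a median of 2438 FPKM. Its change was -1.47 ± 0.41 (SE), adjusted p = 0.0187, with overlap between the stages. RPS2 alone was called higher, from 74.5 ± 14.4 to 172 ± 39.4 FPKM, and with it 1 further member when GV replicate 2, 3 or 6 or MII replicate 4 or 6 was left out.

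Of 55 tested translation factors 10 were lower (18.2%) and 3 higher (5.45%), against 8.42% and 3.64% of all genes. Their median of -0.06 was 0.00 with quantile normalization. The counts leaned on single libraries: 5 were lower and 6 higher without GV replicate 6, and 1 was higher without GV replicate 1 or MII replicate 6. Among 23 expressed members 5 were lower (21.7%) and 3 were raised, shares under the 26.0% and 15.5% of expressed genes. EIF6, which keeps the large ribosomal subunit from joining too early, was lost, at 8.32 to 26.05 FPKM (median 16.7) in GV and 0.558 to 1.503 FPKM (median 1.299) in MII oocytes, a change of -3.02 ± 0.28 (SE), adjusted p = 2.64e-05. EIF5, which acts on the initiation complex at the start codon, rose from 16.4 ± 7.73 to 39.3 ± 4.28 FPKM without overlap, a change of 1.304 ± 0.26 (SE), adjusted p = 0.00327.

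Protein breakdown and protection against peroxides each held changes in both directions. In the proteasome 11 of 47 members were lower and 3 higher, or 23.4% and 6.38% against 8.42% and 3.64% of all genes. Members called higher numbered 5 without MII replicate 6. The list median of -0.07 was 0.08 with quantile normalization, which called 7 members lower. Among 20 expressed members 6 were lower and 3 were raised, shares near the 26.0% and 15.5% of expressed genes. PSMB5, a catalytic subunit, was at 26.7 to 68.9 FPKM (median 48.00) in GV and 4.25 to 12.1 FPKM (median 8.25) in MII oocytes, a change of -2.36 ± 0.29 (SE), adjusted p = 0.000174. PSMA5, of the outer ring, rose from 20.9 ± 5.49 to 50.9 ± 15.2 FPKM, and PSMG1, an assembly chaperone, from 6.64 ± 1.52 to 22.8 ± 4.24 FPKM, both without overlap. Of 38 ubiquitin conjugating enzymes 2 were lower (5.26%) and 0 higher, against 8.42% and 3.64% of all genes, with a median of 0.10. By limma 13 of the 38 had an unadjusted p under 0.05, beside 3651 of 9337 genes tested. Among 12 expressed members 1 was lower (8.33%, against 26.0% of expressed genes). UBE2L3 was the most abundant that fell, from 38.5 ± 9.81 to 12.2 ± 2.75 FPKM. Leaving out GV replicate 2, 4 or 6 or MII replicate 5 gave 1 member called higher.

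In the list of glutathione, thioredoxin and peroxide enzymes 9 of 52 members were lower and 3 higher, or 17.3% and 5.77% against 8.42% and 3.64% of all genes. Among 18 expressed members 27.8% were lower and 16.7% raised, near the 26.0% and 15.5% of expressed genes. The peroxiredoxins, which reduce hydrogen peroxide, went both ways. PRDX2 ranged from 269 to 1425 FPKM in GV oocytes, with a median of 939 FPKM, and from 55.1 to 189 FPKM in MII oocytes, with a median of 142 FPKM. All GV libraries lay above all MII libraries, and the change was -2.65 ± 0.41 (SE), adjusted p = 0.000715. PRDX5 fell from 68.2 ± 21.9 to 13.2 ± 3.15 FPKM, also without overlap. PRDX3, the peroxiredoxin of the mitochondrial matrix, rose from 5.81 ± 2.96 to 13.9 ± 4.03 FPKM with overlap. PRDX1 rose from 35.9 ± 12.04 to 72.9 ± 20.3 FPKM, a change of 1.003 ± 0.28 (SE), adjusted p = 0.0213, which was not called without GV replicate 1, 3 or 5 or MII replicate 1, 2, 3 or 5, at 0.92 to 0.996, nor with median-of-ratios scaling, at 0.83. Of 73 tested heat shock proteins and chaperonins 8 were lower and 4 higher, with a median of -0.04 that was 0.05 with quantile normalization and 0.06 without GV replicate 6. The balance turned with quantile normalization, to 5 lower and 7 higher, and the counts were 16 and 8 with a pseudocount of 0.1, while median-of-ratios scaling left 2 higher. Among 17 expressed members the median was -0.85 and 4 were lower (23.5%, against 26.0% of expressed genes). CCT3, a subunit of the chaperonin that folds tubulin and actin, fell from 8.25 ± 2.37 to 2.45 ± 0.671 FPKM without overlap. Of 50 tested genes of the proton pump and of autophagy 5 were lower and 1 was higher. The share lower was near the 8.42% of all genes and the share higher was under the 3.64%. Members called higher numbered 2 without GV replicate 4 or MII replicate 1, 2 or 4. The list median of -0.03 was 0.06 with quantile normalization. Among 11 expressed members 4 were lower (36.4%, against 26.0% of expressed genes) and 0 were raised. ATP6V1F, of the V-type proton pump, fell from 82.3 ± 30.1 to 14.8 ± 4.43 FPKM, a change of -2.35 ± 0.29 (SE), adjusted p = 0.000178.

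In the nucleus, the shares called lower were 17.4% for the transcription machinery, 7.04% for splicing factors and 2.44% for nuclear pores and transport, beside 8.42% of all genes. In the same order 4.65%, 5.63% and 9.76% were higher, beside 3.64% of all genes. Among expressed members 35.7%, 12.1% and 0.0% were lower and 7.14%, 9.09% and 33.3% raised, beside 26.0% and 15.5% of expressed genes. Of 86 tested genes of the RNA polymerases, Mediator and the general factors 15 were lower and 4 higher, the latter 7 with quantile normalization. The median was 0.01 over all members, -0.03 with median-of-ratios scaling, and -0.72 over 28 expressed members, of which 10 were lower (35.7%). POLR2I, a small subunit of RNA polymerase II, ranged from 81.7 to 157 FPKM in GV oocytes, with a median of 117 FPKM, and from 7.28 to 21.2 FPKM in MII oocytes, with a median of 13.6 FPKM. The groups were far apart, and the change was -3.07 ± 0.25 (SE), adjusted p = 1.44e-05. Rises in this list were those of MED4, of Mediator, from 10.99 ± 2.41 to 26.6 ± 4.15 FPKM, and TAF7, of the TFIID complex, from 13.5 ± 5.77 to 36.5 ± 14.2 FPKM, among others. Of 71 splicing factors 5 were lower and 4 higher, and 8 of the 33 expressed members were retained (24.2%, against 14.0% of expressed genes). The rises numbered 2 without GV replicate 2 or 5, 8 without GV replicate 6, 7 without MII replicate 1, 9 with quantile normalization and 2 with median-of-ratios scaling. SF3B5, a small subunit of the SF3B complex that binds the branch site, ranged from 563 to 980.4 FPKM in GV oocytes, with a median of 748 FPKM, and from 139 to 205 FPKM in MII oocytes, with a median of 151 FPKM. The change was -2.24 ± 0.19 (SE), adjusted p = 1.44e-05, and no libraries overlapped. LSM7 rose from 41.5 ± 19.9 to 100.1 ± 17.5 FPKM, and RBM8A, of the exon junction complex, from 21.7 ± 7.77 to 55.7 ± 10.4 FPKM.

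Nuclear pore and transport genes had 1 of 41 members lower and 4 higher, the latter 7 with quantile normalization and 2 with median-of-ratios scaling. The 1 called lower was not called without GV replicate 2, and 2 were lower without GV replicate 1. NUP35 rose from 11.2 ± 4.700 to 29.3 ± 10.7 FPKM, a change of 1.31 ± 0.32 (SE), adjusted p = 0.0111. Of 145 tested ZNF zinc finger genes 14 were lower and 1 was higher, or 9.66% and 0.69%. Most are low, where the log2(FPKM + 1) scale compresses changes, and with a pseudocount of 0.1 the counts were 41 and 8. Of the 12 expressed at a mean of at least 5 FPKM, 7 were lower (58.3%, against 26.0% of expressed genes). ZNF593, which is the most abundant of those that fell, was at 61.5 to 152 FPKM (median 94.04) in GV and 20.02 to 32.3 FPKM (median 23.1) in MII oocytes, and ZNF22, the 1 that rose, at 8.34 to 14.9 FPKM (median 11.9) in GV and 10.1 to 41.2 FPKM (median 35.2) in MII oocytes, with MII replicate 6 at the low end.

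The same genes were then read in oocytes collected in July, whose 6 GV and 6 MII libraries share none with those of spring but come from the same herd, so that cows may be shared between the seasons. Of the 398 expressed genes lower in spring, all 398 had a log2 change below 0 in summer and 376 were called lower there, where 28.8% of expressed genes and 9.45% of all genes were. Of the 237 raised genes 236 had a change above 0 and 106 were called higher, where 9.85% of expressed genes and 2.25% of all genes were. The 215 retained genes had 2 called lower and 1 higher. Median summer changes were -1.99, 0.97 and -0.00 in the lower, raised and retained genes. In a limma fit over all 24 libraries, 0 of 9337 genes had a maturation change that differed between the seasons at an adjusted p under 0.05 and 166 did at an unadjusted p under 0.05. Genes lower at MII were also shorter in the genome. The median distance from the listed start to the listed stop, introns included, was 3.81 kb in the lower, 2.997 kb in the lost, 6.18 kb in the retained and 11.2 kb in the raised genes, and 5.63 kb in all expressed genes. This is a description, and the part of length in the classes was not tested.

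**Figure D4:**
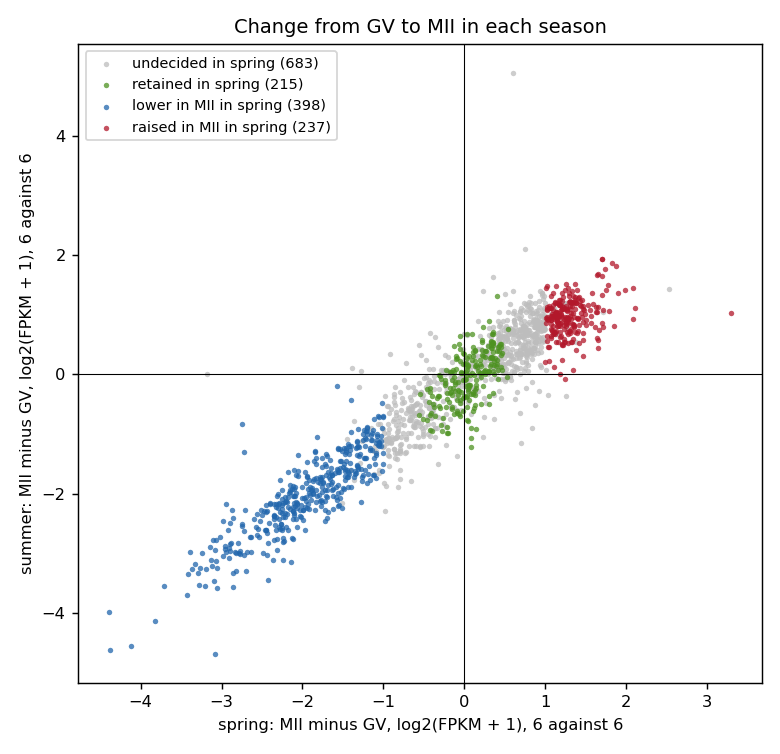
MII minus GV change in log2(FPKM + 1) of the 1533 expressed genes in spring (x axis) and in summer (y axis), 6 against 6 libraries in each season, coloured by their class in spring. All 398 genes lower in spring lie below 0 in summer, and 236 of 237 raised genes lie above 0.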

How the data were processed

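In 12 spring libraries, RNA of oocytes was measured by Smart-seq2 RNA sequencing (Nextera XT, NextSeq 500). The submitters' processing notes name FastQC, STAR 2.5.3a, Partek and the bovine build UMD3.1. By the study's methods the authors aligned reads with STAR to a patch of that build, UMD3.1.1, and quantified them as FPKM. The methods name Partek Flow for the differential expression test and no tool for the quantification. All deposited FPKM columns sum to 1 common total, with 0.01 as the lowest value, so read totals are unknown and only relative depth could be estimated, from steps between low values. Counts per gene were not used here.

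Genes over 0.1 FPKM in at least 1 of 12 libraries were fitted as log2(FPKM + 1) with limma 3.58.1 in R 4.3.3, with moderation following mean expression, no covariate and Benjamini-Hochberg adjustment over all genes tested. Single values were compared by a two-sided exact permutation test. Each library is described as a pool from 1 animal. Which cow gave which library is not stated, so cows may recur across stages and seasons. The fit was tested on simulated data. The fit over both seasons was added after the data were seen.

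The named genes are the 8 largest falls and 8 largest rises among expressed genes without overlap, the 8 most abundant lost, raised and retained genes, up to 4 called members of each list in each direction, and the members that define a list's role. FBXO5, FAU, VIM and KRT18 were chosen after their values were seen. The members and lists were chosen with earlier results of these data known. Alternatives covered the pseudocount, filters, library scaling, depth, the replicate block, the thresholds, the fold measure and each library left out.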

Additional observations from a re-analysis of the deposited data

Results flagged for a closer look

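For the 113 named genes, a library whose distance to its nearest neighbour was large against the range of its group (Dixon's 95% limit for 6 values) was found in 29 of 226 groups, where chance gives about 1 in 20. Of the 29 values, 11 came from GV replicate 6 and 11 from MII replicate 6, the shallow libraries, 4 from MII replicate 3 and 1 each from GV replicates 1 and 3 and MII replicate 5. None of these libraries was removed from the values reported.

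GV replicate 6 was far above the other GV libraries for KRT18 (392 FPKM), GDF9 (261 FPKM), YWHAZ (142 FPKM), EIF5 (31.1 FPKM), UHRF1 (13.6 FPKM), CENPF (12.3 FPKM), YWHAB (11.2 FPKM), CDC5L (10.8 FPKM) and DNMT1 (2.91 FPKM). It was far below them for LBHD1 (82.1 FPKM) and CCDC107 (8.11 FPKM). MII replicate 6 was far above the other MII libraries for TUBA1B (101 FPKM), KRT18 (70.8 FPKM), CNOT7 (48.9 FPKM), UHRF1 (44.3 FPKM), CGGBP1 (32.0 FPKM), DAZL (9.95 FPKM), CNOT6L (8.29 FPKM), ZFP36L2 (4.26 FPKM) and HAS2 (3.99 FPKM), and far below them for MRPL20 (110.5 FPKM) and LBHD1 (72.1 FPKM).

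MII replicate 3 stood highest for CBR3 (12.05 FPKM), MRPL27 (7.75 FPKM), CCT3 (3.78 FPKM) and NDUFA8 (2.07 FPKM), all of them genes that fell. MII replicate 5 stood highest for ZP2 (185 FPKM), GV replicate 1 for HYPK (441 FPKM) and GV replicate 3 for VIM (75.7 FPKM).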

How the results depend on the processing

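The number of genes called moved most with the scale of the fold change, the number with an adjusted p under 0.05 with the shallow libraries and depth, and, over the same genes and all 12 libraries, the number lost or raised with the scaling of the libraries. With a pseudocount of 0.1, 2648 genes were called, 1681 lower and 967 higher, with no pseudocount 3521, 2150 and 1371, and with the ratio of group means 3194, 2041 and 1153, while the median change of all genes moved to -0.13, -0.18 and -0.32. Quantile normalization gave 561 genes higher, 36 lost and 365 raised, with falls at 53.87% of calls, and median-of-ratios scaling 232 higher, 82 lost and 168 raised, with falls at 79.86%. Of 54 counts of list members called lower or higher, 33 moved by over 1.5 times with no pseudocount, 33 with the ratio of group means, 26 with a pseudocount of 0.1, 17 with quantile normalization, 10 with median-of-ratios scaling, 7 without the 2 shallow libraries and 2 to 11 with 1 library left out. An adjusted p under 0.05 was reached by 3985 genes without the 2 shallow libraries and by 3974 with depth as covariate, which left 336 genes retained. With a minimum mean of 1 FPKM in place of 5, 765 genes were lower, 141 lost and 819 retained. With 1 library left out at a time, 1016 to 1349 genes were called, 713 to 854 lower and 285 to 500 higher, 1667 to 3610 reached an adjusted p under 0.05, and the expressed genes counted 364 to 424 lower, 36 to 72 lost, 160 to 237 retained and 198 to 314 raised. The fewest lost genes were found without GV replicate 5 and the most genes with an adjusted p under 0.05 without GV replicate 6.

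With the replicate number as a block, 1138 genes were called, 788 lower and 350 higher, and 328 were retained. Same-numbered GV and MII libraries deviated from their group means with correlations from -0.17 to 0.53, and only numbers 4 and 6 correlated best with their own number, so the libraries share a number and are not treated as pairs. Of the 91 called named genes, 81 kept their call under all 25 alternatives, and 5 of the 22 others gained one under some of them. Read totals are unknown, so no counting interval could be given, and an exact low value in the shallow libraries can be a failed detection.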
